A study of Mus musculus with 8 samples.

Results

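A set of 10 genes used to tell mature oligodendrocyte subtypes apart were followed through single-cell RNA sequencing of mouse brain: *Ptgds*, *Il33*, *Car2*, *Grm3*, *Qdpr*, *Klk6*, *Hopx*, *S100b*, *Anln* and *Jph4*. The genes were listed by name as known subtype markers, but with earlier results of these data known. All 10 were among the 18833 genes of the deposited matrix. The series holds the hippocampus and the cortex of 2 WT (*Fire*+/+) mice, numbered 1 and 4, and 2 KO (*Fire*Δ/Δ) mice, numbered 3 and 6, which makes 8 libraries. All were female. The age was 1 month 18 days for mice 1 and 3 and 1 month 16 days for mice 4 and 6. KO mice lack FIRE, an enhancer of *Csf1r*, in every cell and have no brain microglia, so that the oligodendrocytes themselves carry the deletion too. The library called cortex was made from the rest of the left hemisphere after the hippocampus, the cerebellum and the olfactory bulb had been taken away, so it is wider than cortex proper. Every deposited cell had been kept by the authors as a mature oligodendrocyte and placed in 1 of 4 clusters, Oligo1 to Oligo4.

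Oligodendrocytes wrap axons in myelin, and once mature they still fall into subtypes that differ in their place in the tissue and in the genes they use. In mouse brain and spinal cord, *Klk6* marks mature cells that are frequent in white matter, and *Ptgds* marks mature cells that are frequent in grey matter. The products have unlike roles: enzymes (PTGDS, CAR2, QDPR and the protease KLK6), a cytokine (IL-33), a receptor (GRM3), a calcium-binding protein (S100B), 2 proteins that shape membranes and the cytoskeleton (ANLN and JPH4), and a small nuclear protein (HOPX). In GRCm38, by the GENCODE annotation, the enzyme genes are *Ptgds* at chr2:25466709-25470046 (minus), *Car2* at chr3:14886273-14900770 (plus), *Qdpr* at chr5:45434021-45450236 (minus) and *Klk6* at chr7:43824499-43832030 (plus). The others are *Il33* at chr19:29925114-29960718 (plus), *Grm3* at chr5:9485541-9725170 (minus), *Hopx* at chr5:77086988-77115121 (minus), *S100b* at chr10:76253853-76261159 (plus), *Anln* at chr9:22332012-22389188 (minus) and *Jph4* at chr14:55106826-55116935 (minus).

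The libraries held 904 to 2784 cells each, 12581 in all, with a median of 9377 to 13725.5 UMIs per cell, a UMI being a single captured RNA molecule. Oligo3 was the most frequent cluster (43.8% to 77.8% of the cells of a library), Oligo2 made 15.8% to 25.7%, Oligo4 2.83% to 13.9%, and Oligo1 10.8% to 30.9% of KO cells. WT mice had 6 Oligo1 cells in all, so Oligo1 values are from KO libraries alone. *Csf1r*, whose intron holds the deleted enhancer, had 72 to 162 UMIs in each WT library and 0 to 3 in each KO library. The labelled cell type was checked with the myelin genes *Mog*, *Mag* and *Mbp*, and all 3 were detected in 100% of cells in each library. The 7 astrocyte markers summed to 1.57 to 2.22 normalised UMIs per cell, the 5 fibroblast or meningeal markers found to 0.0104 to 0.0318, the 5 choroid plexus markers to 0.0221 to 0.452, the 5 neuron markers to 0.0616 to 0.129, the 5 endothelial markers to 0.0367 to 0.168, the 4 progenitor markers to 0.0964 to 0.286 and the 4 haemoglobin genes to 0.245 to 9.98. A total of 21 barcodes occurred in 2 libraries. Each batch of the authors held 1 tissue of 1 pair of mice of the same age (mice 1 and 3, or mice 4 and 6), so tissue and batch cannot be told apart, nor can batch and the 2 days of age between the pairs. Genotypes can be compared inside a batch.

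Upstream sequences of 4 of the genes are shown because the values below turn on them: *Klk6* and *S100b*, which were highest or among the highest in Oligo2, and *Il33* and *Jph4*, which were lowest there. They come from the 250 bases before the first RefSeq start of each gene in GRCm38.p6 and are read on the strand of the gene, 5′ to 3′. RefSeq windows were found for 9 of the 10 genes, and 250 bases before each start were searched for the motifs of 3 kinds of factor. ACAAAG, which is bound by SOX factors, was searched on both strands. CAGCTG, which is 1 form of the E-box, reads the same on both strands. TATAAA, which is bound by the general transcription machinery, was searched on the strand of the gene. Capitals mark a match, and bases that GENCODE counts as part of the gene are left off, which leaves 205 bases for *Klk6* and 250 for the others. *Klk6* lies at chr7:43824294-43824498 (plus strand), *S100b* at chr10:76253586-76253835 (plus), *Il33* at chr19:29924863-29925112 (plus) and *Jph4* at chr14:55116936-55117185 (minus).
Klk6: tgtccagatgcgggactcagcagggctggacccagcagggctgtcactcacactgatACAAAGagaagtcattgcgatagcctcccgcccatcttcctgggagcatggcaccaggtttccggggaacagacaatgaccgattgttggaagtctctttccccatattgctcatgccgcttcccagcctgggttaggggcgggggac
S100b: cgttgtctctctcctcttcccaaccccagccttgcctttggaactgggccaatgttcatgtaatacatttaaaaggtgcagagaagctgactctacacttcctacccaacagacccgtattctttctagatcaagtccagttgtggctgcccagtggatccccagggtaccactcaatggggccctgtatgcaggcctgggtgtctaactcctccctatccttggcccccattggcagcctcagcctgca
Il33: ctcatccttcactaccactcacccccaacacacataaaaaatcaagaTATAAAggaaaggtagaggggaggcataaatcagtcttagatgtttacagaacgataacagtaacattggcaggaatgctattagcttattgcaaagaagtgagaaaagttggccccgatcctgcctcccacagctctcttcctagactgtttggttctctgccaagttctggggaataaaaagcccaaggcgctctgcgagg
Jph4: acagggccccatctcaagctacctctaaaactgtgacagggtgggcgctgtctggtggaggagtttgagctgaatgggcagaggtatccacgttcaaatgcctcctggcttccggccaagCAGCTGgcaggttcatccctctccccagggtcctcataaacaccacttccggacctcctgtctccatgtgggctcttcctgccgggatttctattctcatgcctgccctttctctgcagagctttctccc

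ACAAAG occurred 1 time in the *Klk6* window shown, and 16.5% of 32851 RefSeq windows of 250 bases hold it. The window of the second RefSeq start of *Klk6*, not shown, did not hold it. The *Il33* window held TATAAA 1 time, as 7.59% of all windows do, and the *Jph4* window held CAGCTG 1 time, as 13.0% do. The window of the second *Il33* start, not shown, also held TATAAA 1 time. None of these letters occurred in the *S100b* window, nor in those of *Grm3*, *Qdpr*, *Hopx* and *Anln*. The *Ptgds* window, which lies inside the gene by GENCODE and is not shown, held CAGCTG 2 times. No measurement of binding was made in these samples.

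How the genes divided the 4 clusters was the first question. The clusters had been drawn by the authors from these same cells, so their levels are given as a description, without a test. A level is the mean over the cells of a library of log2(normalised UMIs + 1), where a UMI count is divided by the size factor of its cell. *Klk6*, *Hopx*, *S100b* and *Anln* were high in Oligo2, and *Ptgds*, *Il33*, *Qdpr* and *Jph4* were lowest there.

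**Figure D1:**
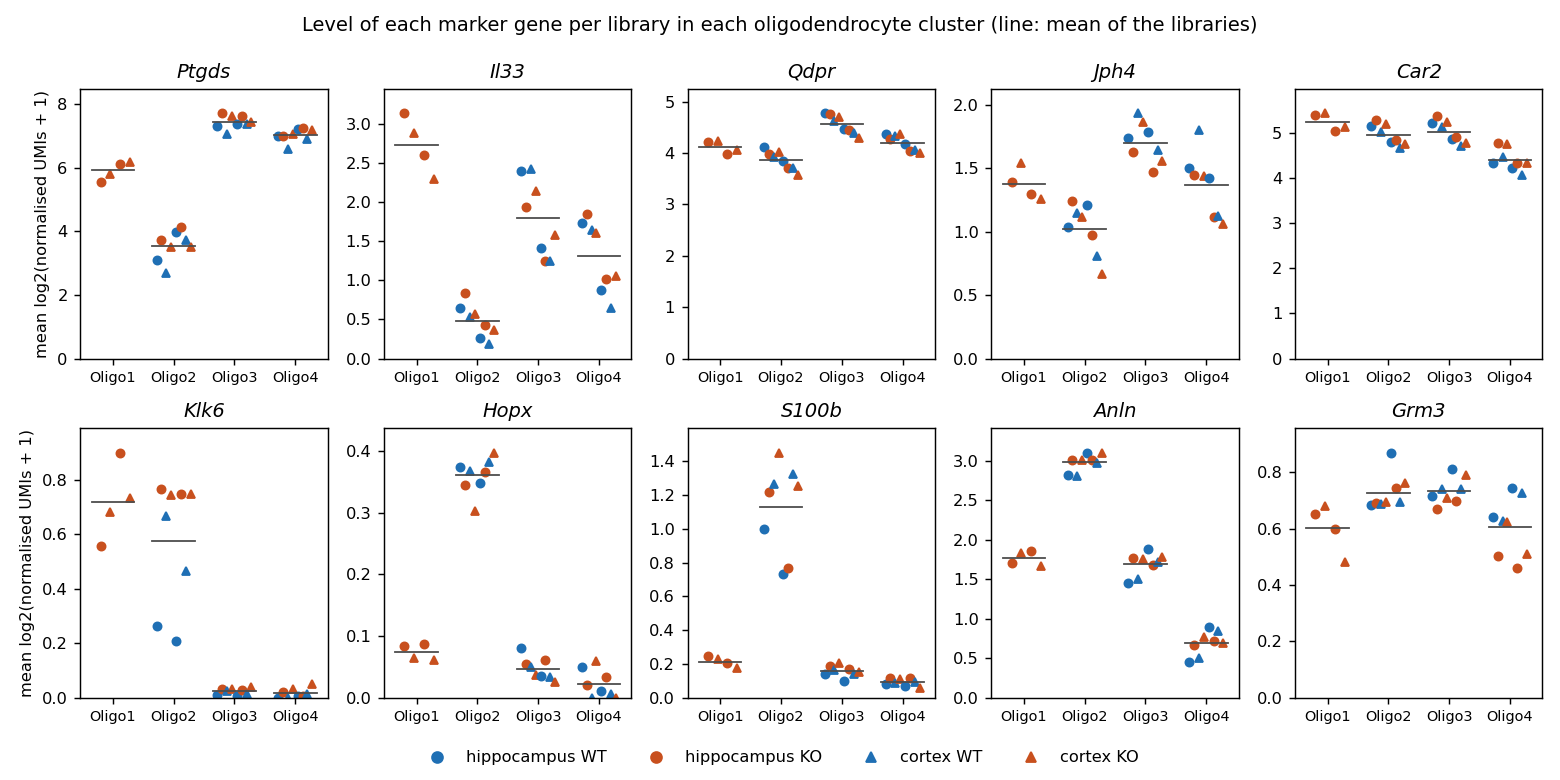
Mean log2 level of each gene (y axes) in each cluster (x axes), 1 point per library with at least 20 cells of the cluster; colour gives the genotype, shape the tissue, and a line the mean of the libraries. *Anln* in Oligo2 lay between 2.81 and 3.10 and no other cluster reached 1.89, while *Ptgds* in Oligo2 did not pass 4.13 and lay above 5.54 in every other cluster.

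*Ptgds*, which encodes the brain-type synthase of prostaglandin D2, gave the widest contrast. In Oligo2 its level was 2.70 at the lowest, 3.62 at the median and 4.13 at the highest of 8 libraries, and in Oligo3 it was 7.05, 7.42 and 7.71. Oligo4 (6.58, 7.03 and 7.27) stood below Oligo3 in 8 of 8 libraries although their ranges overlapped, and Oligo1 (5.55, 5.98 and 6.19 in 4 KO libraries) lay between Oligo4 and Oligo2 without overlap. All Oligo3 cells and at least 96.8% of Oligo2 cells of a library had a *Ptgds* UMI. *Il33*, a nuclear cytokine released by damaged cells, had the order Oligo1, Oligo3, Oligo4, Oligo2. Its levels ran from 2.30 to 3.14 in Oligo1, 1.24 to 2.43 in Oligo3, 0.65 to 1.85 in Oligo4 and 0.19 to 0.84 in Oligo2. Neighbours in that order overlapped in range, but within each library the order held in 4 of 4, 8 of 8 and 8 of 8 comparisons.

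*Qdpr*, which regenerates tetrahydrobiopterin, and *Jph4*, a junctophilin that holds the endoplasmic reticulum near the plasma membrane, were shifted less. *Qdpr* was 4.29 to 4.77 in Oligo3 and 3.56 to 4.13 in Oligo2, with Oligo4 (4.01 to 4.38) and Oligo1 (3.98 to 4.24) between them. *Jph4* was 1.47 to 1.93 in Oligo3 and 0.67 to 1.24 in Oligo2. For both, Oligo1 and Oligo4 did not differ beyond the spread of their libraries. *Car2*, the carbonic anhydrase of the cytosol, was in every cell of every library and cluster, and its order was Oligo1, Oligo3, Oligo2, Oligo4. All neighbours overlapped in range, but within a library Oligo4 (4.07 to 4.78) was below Oligo2 (4.65 to 5.28) in 8 of 8.

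*Anln*, which encodes the scaffold that anchors septin filaments in myelin, was 2.81, 3.01 and 3.10 in Oligo2 at the lowest, the median and the highest library. It was 1.46 to 1.89 in Oligo3, 1.66 to 1.86 in Oligo1 and 0.46 to 0.90 in Oligo4, so that Oligo3 and Oligo1 overlapped and the others did not. *S100b*, a calcium-binding protein that astrocytes also make, was 0.73, 1.24 and 1.45 in Oligo2 and at most 0.25 elsewhere. A *S100b* UMI was found in 46.2% to 68.1% of Oligo2 cells, 16.3% to 27.2% of Oligo1 cells, 12.3% to 23.7% of Oligo3 cells and 8.33% to 14.9% of Oligo4 cells. *Hopx*, a homeodomain protein that does not itself bind DNA, was in 31.1% to 36.4% of Oligo2 cells and in 0% to 10.0% of the cells of other clusters. Of the 7 markers of newly formed oligodendrocytes, 6 were found, and they summed to 3.54 to 4.36 normalised UMIs in Oligo2 and 0.376 to 2.14 in the others. *Enpp6* made most of that sum, at 3.11 to 3.92 in Oligo2 and 0.306 to 0.746 in Oligo3. The other 5 were not set apart in Oligo2: *Tcf7l2* reached 0.290 there and 0.389 in Oligo3, *Gpr17* reached 0.0773 there and 0.151 in Oligo4, *Itpr2* reached 0.161 there and 0.234 in Oligo4, and *Bmp4* and *Neu4* were at most 0.0382 in any cluster. The part of these markers in the members' levels was not tested.

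*Klk6*, a secreted protease, was the one member high in both Oligo2 and Oligo1. Its UMIs were found in 15.4% to 41.9% of Oligo2 cells and 24.3% to 42.9% of Oligo1 cells, against 0.712% to 5.13% of Oligo3 cells and 0% to 6.94% of Oligo4 cells. In 2 WT libraries there was no *Klk6* UMI in Oligo4: 0 of 149 cells, which allows a share of up to 2.01%, and 0 of 38 cells, which allows up to 7.89%. These limits are on cells with a captured UMI, not on cells that express the gene. Median depth was 10202 to 14282.5 UMIs per cell in Oligo2 and 10956.5 to 16160 in Oligo4, so Oligo4 cells were not the shallower. *Grm3*, an inhibitory glutamate receptor, had no such pattern: its libraries lay between 0.46 and 0.87 in every cluster, and all neighbours in its order overlapped.

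Over the 28 groups of a library and a cluster with at least 20 cells, the members fell into the same sets. Pearson's r of their mean levels was 0.94 for *Hopx* and *S100b*, 0.89 for *Hopx* and *Anln*, and 0.90 for *Qdpr* and *Jph4*. For *Ptgds* it was -0.95 with *Hopx* and -0.93 with *S100b*. *Klk6* had r of 0.63 with *Hopx*, and -0.06 with *Il33*. These groups share cells of 1 mouse and 1 library, so r is a description and has no p. Among 9184 genes past the filter on low genes, the most alike was *Hapln2* for *Anln* (r = 0.99), *Tln2* for *Hopx* (0.98), *Mgst3* for *S100b* (0.98), *Tmsb4x* for *Klk6* (0.92), *Dusp10* for *Ptgds* (0.90), *Cd63* for *Il33* (0.90), *Cavin3* for *Car2* (0.95), *Prkca* for *Grm3* (0.80), *C030029H02Rik* for *Qdpr* (0.91) and *Qdpr* for *Jph4* (0.90). The next in order were *Slco3a1* and *Rasgrp3* for *Anln*, *Dctn4* and *Rapgef5* for *Hopx*, *Tln2* and *Cdkn1c* for *S100b*, *Txn1* and *Tspan9* for *Klk6*, and *Serinc5* and *Kif21b* for *Ptgds*. For *Il33* they were *Ss18l2* and *Lap3*, for *Car2* *Dbi* and *Calm2*, for *Grm3* *Dynll2* and *Arid5b*, for *Qdpr* *Jph4* and *Apoe*, and for *Jph4* *C030029H02Rik* and *Lrp4*.

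Single cells inside Oligo2 were compared in the same way. To set depth aside, each cell was thinned to 5000 UMIs, and Oligo2 cells with a *Klk6* UMI were set beside those without. *S100b* was found in 61.5% to 88.9% of the cells with *Klk6* and 22.9% to 41.6% of those without, and its share was higher with *Klk6* in 8 of 8 libraries. *Jph4* went the other way, at 16.4% to 37.8% with *Klk6* and 43.8% to 67.4% without, lower in 8 of 8. *Il33* (0% to 29.1% against 10.3% to 42.3%) and *Ptgds* (67.9% to 97.8% against 90.2% to 98.8%) were also lower with *Klk6* in 8 of 8. So was *Grm3*, which did not divide the clusters (25.7% to 40.9% against 37.7% to 49.5%). *Hopx* was higher with *Klk6* in 7 of 8 libraries, and in the cortex of KO mouse 3 it was 13.5% with and 14.4% without. Before thinning, the median depth of the cells with *Klk6* was 10351.5 to 15486 UMIs and that of the cells without was 10012 to 14116.5. In Oligo1, the other cluster with *Klk6*, *S100b* and *Hopx* were higher with *Klk6* in 4 of 4 libraries, but *Il33* was higher in 3 of 4 and *Jph4* in 2 of 4. Cells of a library are not replicates, and the genes took part in the clustering, so no test was made.

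**Figure D2:**
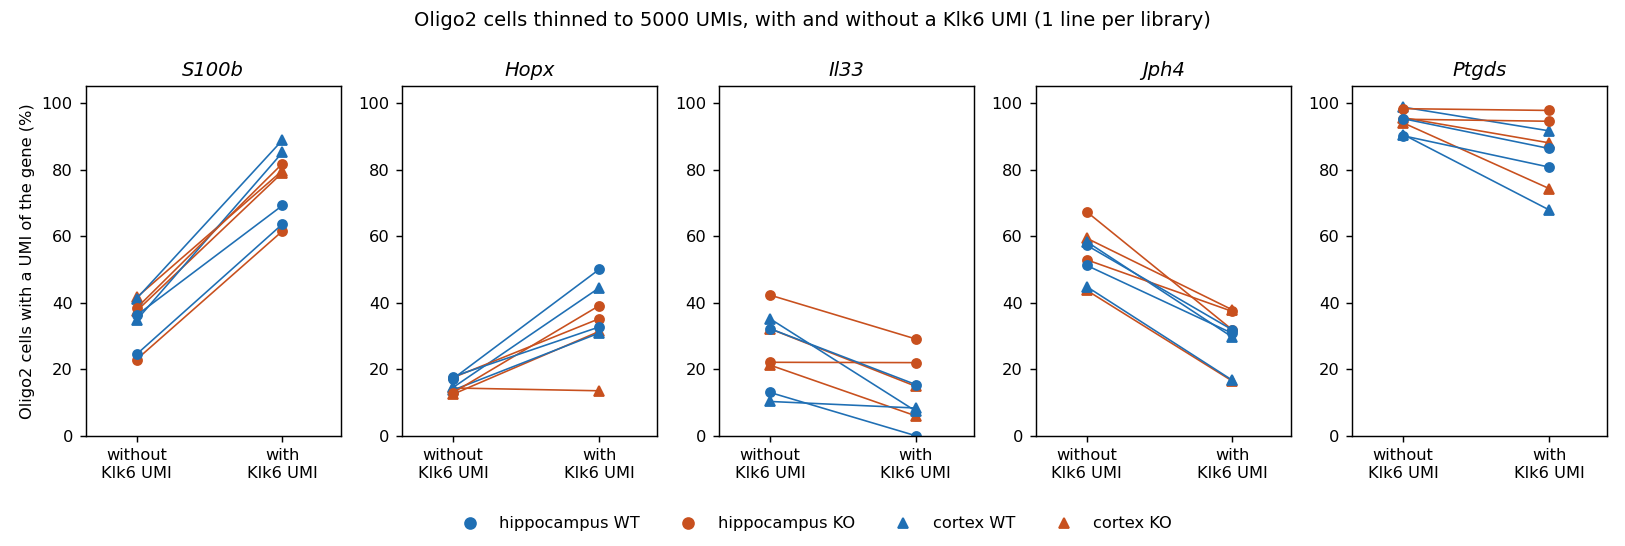
Share of Oligo2 cells with a UMI of each named gene (y axis, %) among cells without and with a *Klk6* UMI (x axis), after thinning to 5000 UMIs; each line joins the 2 shares of 1 library, coloured by genotype with the tissue as the shape. *S100b* was at 22.9% to 41.6% without *Klk6* and 61.5% to 88.9% with it, and *Jph4* was lower with *Klk6* in 8 of 8 libraries.

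Whether the markers differed between hippocampus and cortex was asked next, with limma on the mean level of each library and genotype in the model. No gene passed an adjusted p of 0.05 (Benjamini-Hochberg over all genes tested), in all cells (0 of 9257 genes, 0%), in Oligo2 (0 of 9292, 0%), Oligo3 (0 of 9135, 0%), Oligo4 (0 of 9381, 0%) or Oligo1 of KO mice (0 of 9371, 0%). So 0 of 10 members passed in all cells, Oligo2 and Oligo1, 0 of the 9 tested in Oligo3 and 0 of the 8 tested in Oligo4. *Klk6* in Oligo3 and Oligo4 and *Hopx* in Oligo4 had UMIs in too few cells to be tested (the filter asked for 5% of cells on average). At an unadjusted p under 0.05 limma had 490, 502, 437, 463 and 410 genes in that order, and edgeR on summed UMIs called 0, 0, 0, 2 and 3 genes, none of them a member.

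*S100b* had the smallest unadjusted p of the members between tissues, with less in hippocampus. In Oligo2 its level was 1.00 and 1.22 in the hippocampus of mice 1 and 3 and 0.73 and 0.77 in that of mice 4 and 6. In cortex it was 1.27, 1.45, 1.33 and 1.26 in mice 1, 3, 4 and 6. All 4 cortex libraries were above all 4 hippocampus libraries. How common such a split was among all genes was not counted, so it is a description only. The hippocampus minus cortex difference was -0.40 ± 0.11 (SE; limma, unadjusted p = 0.0088, adjusted p = 0.73), and over all cells it was -0.15 ± 0.03 (unadjusted p = 0.0040, adjusted p = 0.64). In Oligo3 and Oligo4 the difference was -0.01 ± 0.02 and 0.01 ± 0.02. It was below 0 in 4 of 4 mice in all cells and in Oligo2, where 18.6% and 14.6% of the genes tested also did so. With a term for mouse in place of genotype, limma's unadjusted p over all cells was 2.16e-05 and the adjusted p 0.058. Over the 15 alternatives run, the adjusted p lay between 0.058 and 0.9998. The astrocyte markers of Oligo2 cells, all 7 of which were found, summed to 1.63 to 2.25 normalised UMIs in hippocampus and 1.79 to 2.23 in cortex. They were lower in hippocampus in mice 1 (1.63 and 1.79), 3 (1.68 and 1.83) and 4 (1.93 and 2.23) and higher in mouse 6 (2.25 and 2.14). The newly formed oligodendrocyte markers of Oligo2 summed to 3.54 to 3.85 in hippocampus and 3.94 to 4.36 in cortex. The part of either list in the *S100b* difference was not tested. Oligo2, where *S100b* was highest, made 15.9%, 15.8%, 20.4% and 17.1% of hippocampus cells in mice 1, 3, 4 and 6. In cortex it made 23.4%, 25.7%, 17.9% and 25.1% in the same order. The part of these shares in the *S100b* difference over all cells was not tested.

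**Figure D3:**
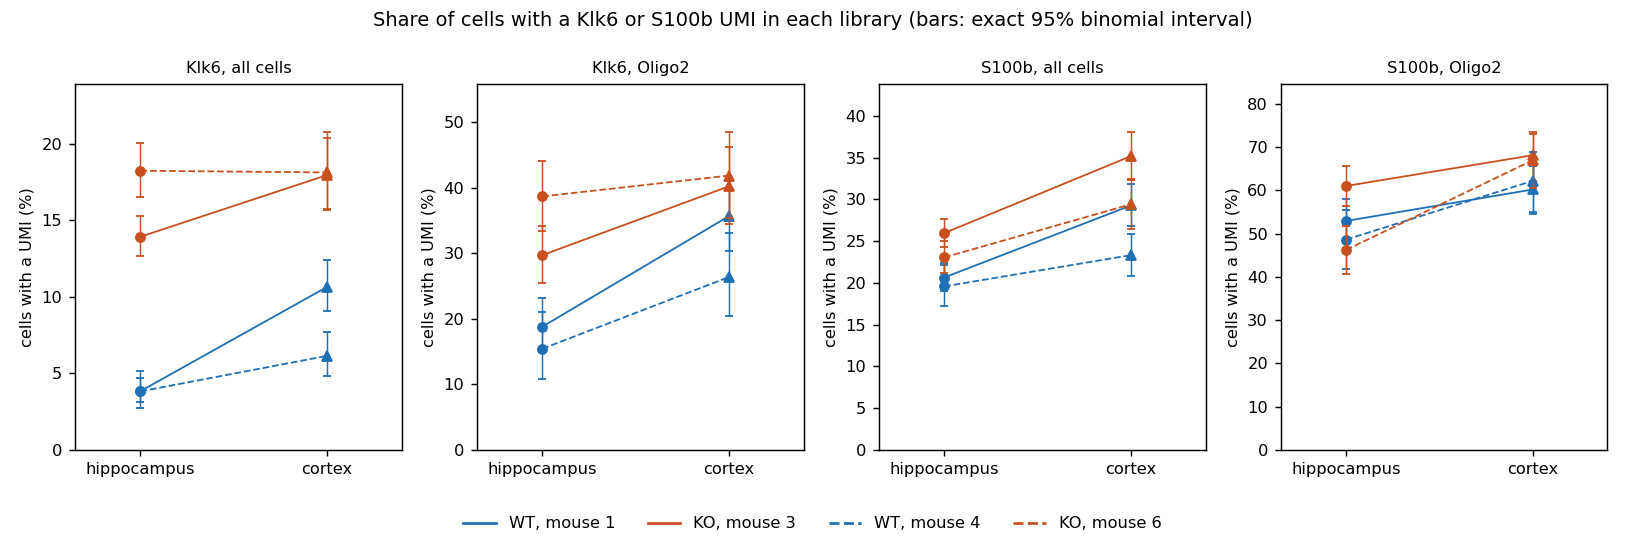
Share of cells with a *Klk6* or *S100b* UMI (y axes, %) in hippocampus and cortex (x axes), for all cells and for Oligo2; a line joins the libraries of 1 mouse, and bars are exact 95% binomial intervals, which cover counting error alone. *S100b* in Oligo2 was 46.2% to 61.0% in hippocampus and 60.2% to 68.1% in cortex, and *Klk6* in all cells was 3.82% to 10.7% in WT and 13.9% to 18.3% in KO libraries.

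Other members lay on 1 side in all 4 mice without passing the test. Higher in hippocampus in 4 of 4 mice were *Il33* and *Car2* over all cells (6.78% of all genes were), *Ptgds*, *Il33* and *Car2* in Oligo2 (5.76% of genes), and *Ptgds*, *Car2*, *Qdpr* and *Hopx* in Oligo3 (5.98%). On the mean log2 scale, *S100b* was the one member lower in 4 of 4 in all cells or in Oligo2. By the share of Oligo2 cells with a UMI, before thinning, *Klk6* was also lower in 4 of 4, with differences of -16.9 to -3.18 percentage points. All genes were not counted on that scale. Of the members tested, none was lower in 4 of 4 in Oligo3 (16.9% of genes) or Oligo4 (10.7%), and none was higher in Oligo4 (5.81%). *Klk6* in Oligo3, which was under the filter, was lower in 4 of 4 mice, with differences of -0.02 to -0.0021. The *Car2* difference was 0.07 to 0.13 per mouse over all cells (limma 0.09 ± 0.17, adjusted p = 0.999). *Ptgds* in Oligo2 was above cortex by 0.21 to 0.62 per mouse (limma 0.37 ± 0.27, adjusted p = 0.998). Neither fit had a term for mouse, so the SE takes in the spread between mice. With that term, limma's unadjusted p was under 0.05 for 3 of 10 members over all cells (1450 of 9257 genes). In Oligo2 it was so for 5 of 10 (1181 of 9292 genes) and in Oligo3 for 3 of 9 (1260 of 9135). No gene passed an adjusted p of 0.05 with that term. In Oligo1 of the 2 KO mice the *Ptgds* difference was -0.27 and -0.05.

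**Figure D4:**
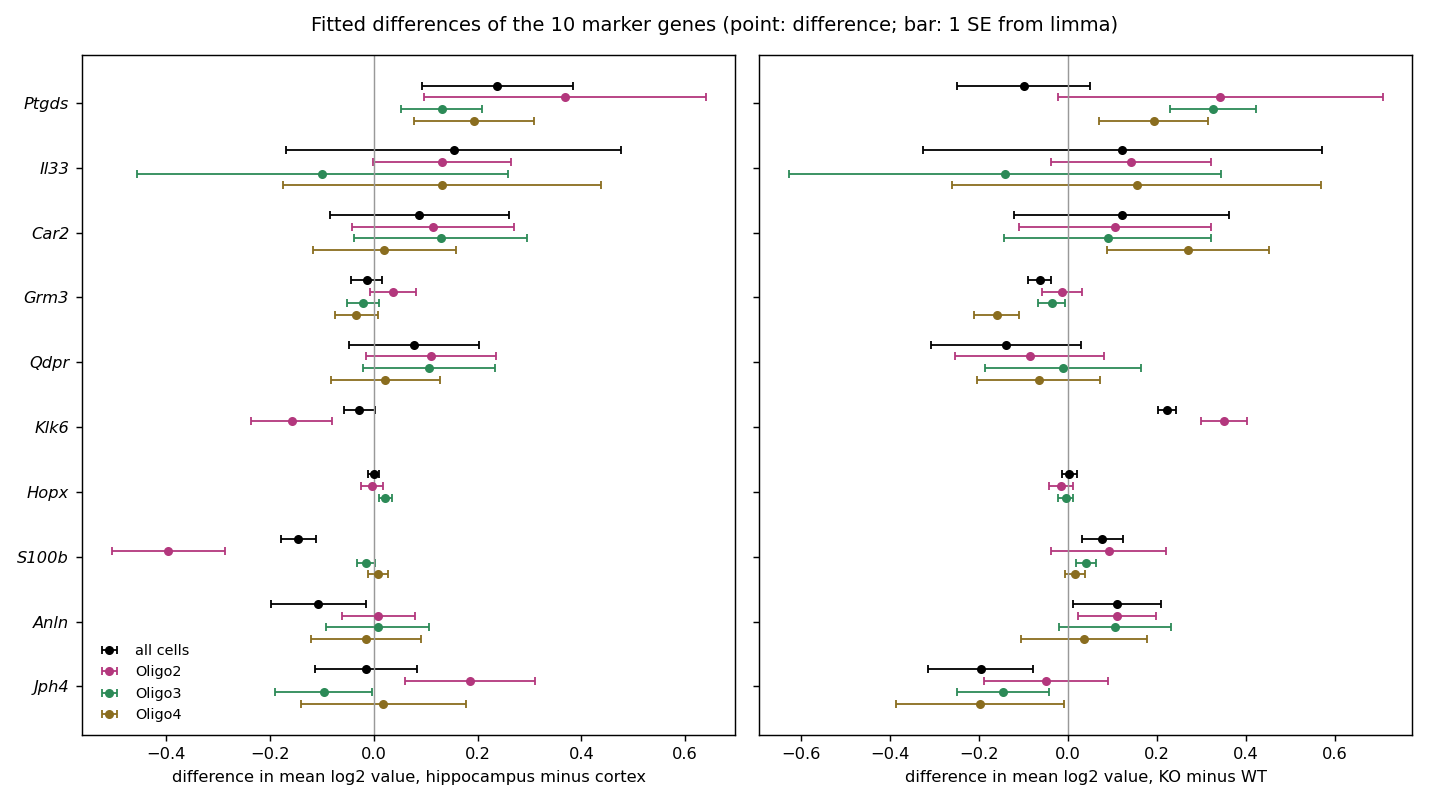
Fitted hippocampus minus cortex (left) and KO minus WT (right) differences in mean log2 level (x axes) of the 10 genes (y axis) over all cells and in Oligo2, Oligo3 and Oligo4; points are limma estimates and bars 1 SE. *S100b* between tissues (-0.15 over all cells and -0.40 in Oligo2) and *Klk6* between genotypes (0.22 over all cells and 0.35 in Oligo2) lay farthest from 0 for their SE, and no difference shown passed an adjusted p of 0.05.

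Whether loss of microglia went with other marker levels was asked by comparing the 2 KO with the 2 WT mice, with both tissues of a mouse averaged. Again no gene passed limma's adjusted p of 0.05 in all cells (0%), Oligo2 (0%), Oligo3 (0%) or Oligo4 (0%), and no member did (0 of 10, 10, 9 and 8 tested). Unadjusted p was under 0.05 for 209, 139, 103 and 282 genes, and edgeR called 8, 4, 3 and 25 genes, none a member. A term for mice of the same age was added as an alternative, which leaves little to estimate the spread from. Limma's unadjusted p was then under 0.05 for 970 of 9257, 571 of 9292, 569 of 9135 and 674 of 9381 genes. Among them were 6 of 10, 3 of 10, 4 of 9 and 4 of 8 members, and no gene passed an adjusted p of 0.05. With 2 mice a genotype, an exact permutation test of 1 gene cannot go below p = 0.333.

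*Klk6* differed most for its error between the genotypes. Over all cells it was at 11.3 and 10.0 CPM (UMIs scaled to 1 total in every library) in WT hippocampus (mice 1 and 4), 58.1 and 30.7 in WT cortex, 154.8 and 124.2 in KO hippocampus (mice 3 and 6), and 123.2 and 98.5 in KO cortex. All 4 KO libraries were above all 4 WT libraries, as 2.78% of all genes were, and no member had all KO libraries below (1.35% of genes). The difference in mean log2 level was 0.22 ± 0.02 (limma, unadjusted p = 0.0011, adjusted p = 0.77), and inside batches 3, 4, 5 and 6 it was 0.26, 0.13, 0.30 and 0.20. Part of the KO cells were Oligo1, which held *Klk6* and was almost missing from WT, so the gene was also compared inside Oligo2. There the libraries had 60.4 and 43.8 CPM in WT hippocampus, 221.4 and 151.4 in WT cortex, 384.4 and 255.6 in KO hippocampus, and 306.9 and 229.9 in KO cortex. The groups again did not overlap on this scale (1.44% of genes had all KO libraries above on the log2 scale, and 1.13% below), and the difference was 0.35 ± 0.05 (limma, unadjusted p = 0.0037, adjusted p = 0.9999). Inside batches 3, 4, 5 and 6 it was 0.50, 0.08, 0.54 and 0.28. Summed microglial markers were 0.453 to 1.23 normalised UMIs in WT Oligo2 cells, with 10 of 10 found, and 0.128 to 0.203 in KO Oligo2 cells, with 2 to 5 found. Their part in the *Klk6* values was not tested.

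The genotype gap of *Klk6* was wider in hippocampus than in cortex. In Oligo2, 18.8% (95% exact interval 15.0 to 23.1) and 15.4% (10.9 to 21.0) of WT hippocampus cells had a *Klk6* UMI, and 35.7% and 26.4% of WT cortex cells. In KO mice the shares were 29.7% and 38.7% in hippocampus and 40.2% and 41.9% in cortex. Thinned to 5000 UMIs they were 13.8% and 10.3%, 25.8% and 17.9%, 24.9% and 27.5%, and 26.8% and 29.5% in the same order. The WT hippocampus libraries were the lowest throughout. The hippocampus minus cortex difference of *Klk6* in Oligo2 was -0.40 and -0.26 in WT mice 1 and 4 and 0.02 and 0.0022 in KO mice 3 and 6. Tested across all genes, the difference between these tissue differences (KO minus WT) over all cells was 0.12 ± 0.04 with limma (unadjusted p = 0.030, adjusted p = 0.79), which called 0 of 9257 genes (0%; 574 at an unadjusted p under 0.05). With edgeR on summed UMIs and the mouse as a term it was 2.37 on the log2 scale (adjusted p = 0.00092), the only gene called (1 of 9257, 0.0108%). Oligo1, which held *Klk6*, made 30.9% and 23.2% of KO hippocampus cells (mice 3 and 6) and 13.7% and 10.8% of KO cortex cells. The part of these shares in the value over all cells was not tested. In Oligo2 alone, an analysis added after the values were seen, edgeR gave 2.07 (adjusted p = 1.29e-08; again 0.0108% of genes) and limma 0.34 ± 0.05 (adjusted p = 0.65). With 1 mouse left out at a time, the estimate over all cells was 1.92 to 2.67 with edgeR and 0.08 to 0.16 with limma. Those fits have 1 mouse in 1 genotype, which is assumed to vary like the other genotype, and without mouse 6 edgeR called 250 genes over all cells and 83 in Oligo2, so their p-values say nothing of stability. Over the 23 alternatives run for *Klk6*, the adjusted p lay between 2.43e-32 and 0.9995.

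*Ptgds* and *Grm3* were each set apart by genotype in 1 cluster. *Ptgds* in Oligo3 was 7.30 and 7.39 in WT hippocampus, 7.05 and 7.37 in WT cortex, 7.71 and 7.62 in KO hippocampus and 7.64 and 7.45 in KO cortex. Every KO library was above every WT library (1.14% of genes; 0.788% were below), and the difference was 0.33 ± 0.10 (limma, unadjusted p = 0.037, adjusted p = 0.9999). Over all cells it was -0.10 ± 0.15. *Grm3* in Oligo4 was 0.64 and 0.63 in hippocampus and cortex of WT mouse 1, 0.74 and 0.73 in WT mouse 4, 0.50 and 0.62 in KO mouse 3 and 0.46 and 0.51 in KO mouse 6. KO was below WT without overlap (1.8% of genes, and 1.77% were above), with a difference of -0.16 ± 0.05 (limma, unadjusted p = 0.034, adjusted p = 0.9996). The smallest library had 38 Oligo4 cells. Over all cells, 6 of 10 members had 1 sign in 4 of 4 batches. *Klk6*, *Car2* (0.07 to 0.15) and *S100b* (0.04 to 0.10) were above WT in KO, as 13.4% of genes were, and *Jph4* (-0.33 to -0.13), *Qdpr* (-0.23 to -0.01) and *Grm3* (-0.17 to -0.0056) were below, as 9.9% of genes were. Apart from *Klk6*, their genotypes overlapped over the 4 batches, and none passed limma's test. The KO cells here include Oligo1, and the part of the cluster shares in these signs was not tested. Inside Oligo2, Oligo3 and Oligo4 alike, *Klk6* (under the filter in Oligo3 and Oligo4) and *Car2* kept their sign in 4 of 4 batches. *S100b* did so in Oligo3 alone, *Jph4* in Oligo3 and Oligo4, *Grm3* in Oligo4 alone and *Qdpr* in none. The share of all genes that did so inside a cluster was not counted.

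*Il33*, *Car2* and *Qdpr* were set apart between the 2 pairs of mice of the same age. *Il33* over all cells was 2.08, 2.13, 1.96 and 1.82 in hippocampus of WT mouse 1 and KO mouse 3 and then cortex of both, and 1.12, 1.39, 1.00 and 1.31 in the same order in WT mouse 4 and KO mouse 6. Every library of mice 1 and 3 was above every library of mice 4 and 6, for WT and KO and for both tissues. *Car2* (5.08 to 5.30 against 4.64 to 4.84) and *Qdpr* (4.42 to 4.65 against 4.06 to 4.30) split in the same way. Over all cells 3 of 10 members thus split upward and 0 downward, beside 14.2% of all genes upward and 19.4% downward. Such a split was common among all genes and is not particular to the members. These 3 members kept that split inside Oligo2 (9.54% of genes), Oligo3 (13.7%) and Oligo4 (6.13%), where *Jph4* joined them. In Oligo2 the summed haemoglobin genes were split too, at 4.95 to 26.0 normalised UMIs in mice 1 and 3 and 0.0999 to 0.574 in mice 4 and 6, while over all cells the pairs overlapped (1.53 to 9.98 and 0.245 to 1.95). Their part in the split of the members was not tested. *Grm3* was the one member below in mice 1 and 3 in a cluster, Oligo2 (11.8% of genes; 17.8% in Oligo3 and 6.5% in Oligo4, with no member). The pairs differ in age by 2 days and in batch, which cannot be told apart, and no test was made. The *Il33* difference over all cells was 0.15 ± 0.32 between tissues and 0.12 ± 0.45 between genotypes (limma, SE).

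**Figure D5:**
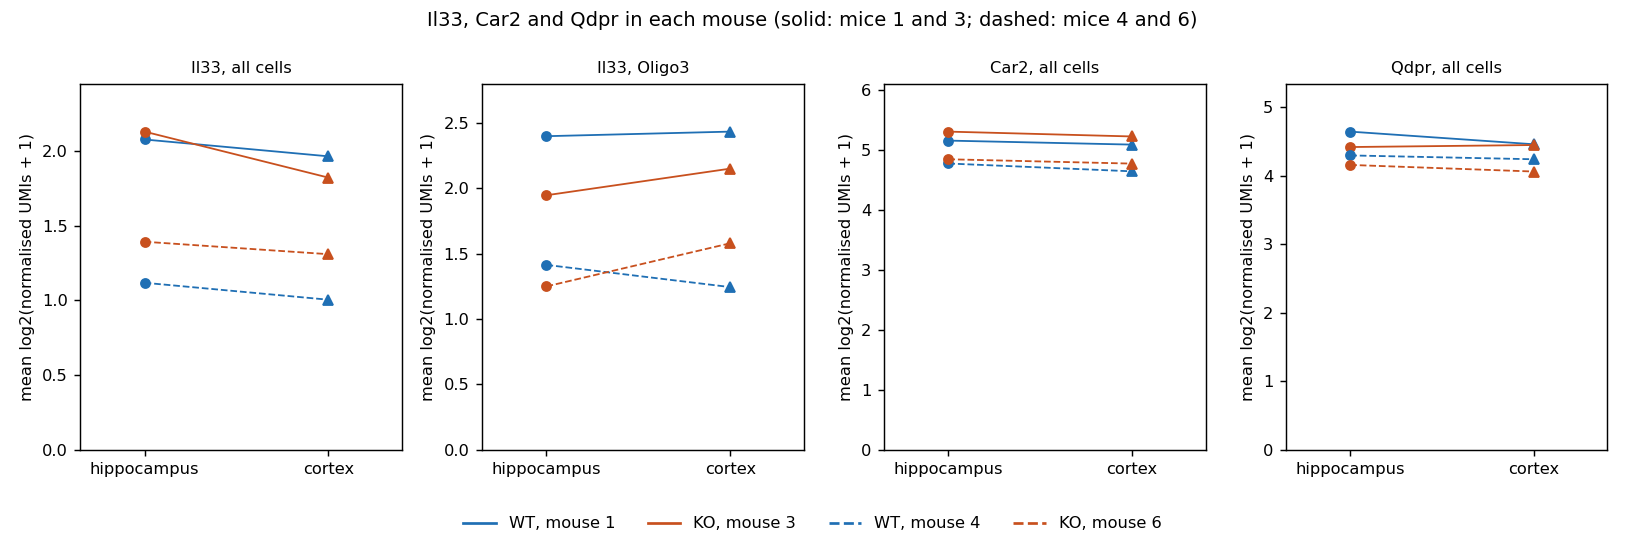
Mean log2 level (y axes) of *Il33* over all cells and in Oligo3, and of *Car2* and *Qdpr* over all cells, in hippocampus and cortex (x axes); a line joins the libraries of 1 mouse, solid for mice 1 and 3 and dashed for mice 4 and 6, coloured by genotype. *Il33* lies at 1.82 to 2.13 on the solid lines and 1.00 to 1.39 on the dashed lines.

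For *Anln* and *Hopx* no difference passed the test. In Oligo2 the *Hopx* difference was -0.0040 ± 0.02 between tissues and -0.02 ± 0.03 between genotypes, and that of *Anln* 0.01 ± 0.07 and 0.11 ± 0.09. Over all cells the *Anln* difference between tissues was -0.11 ± 0.09.

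Genes that work beside the members were looked at as 9 lists: prostaglandin synthesis and receptors, IL-33 signalling, carbonic anhydrases and pH, tetrahydrobiopterin, glutamate receptors, kallikreins and protease-activated receptors, junctophilins and calcium stores, anillin and septins, and other mature oligodendrocyte genes. Of their 148 genes, 131 were in the matrix and 61 to 65 could be tested in a comparison. No member of the kallikrein list reached the filter. None of the others passed limma's adjusted p of 0.05 in any of the 10 comparisons, and 1 to 7 had an unadjusted p under 0.05. Between tissues over all cells the medians of the lists ran from -0.02 to 0.01 beside -0.01 for all genes. Between genotypes over all cells they ran from -0.01 to 0.06 beside 0.0013, with 3 of 3 prostaglandin genes and 9 of 16 other mature oligodendrocyte genes above 0. The highest of these medians was that of the other mature oligodendrocyte genes, which was also 0.05 in Oligo3 beside 0.00017 for all genes, and -0.06 between tissues in Oligo1 beside -0.0087. In Oligo3 the counts above 0 were 12 of 16 for the other mature oligodendrocyte genes and 0 of 8 for the glutamate receptors. The share of all genes above 0 was not counted. In the interaction, 4 of the 16 other mature oligodendrocyte genes tested had an unadjusted p under 0.05 with limma, beside 574 of 9257 genes. That was the largest such count of any list and comparison. Of the 16 differences, 8 were above 0 and 8 below.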

How the data were processed

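Droplet libraries (10x 3′) of mature oligodendrocytes were sequenced, and the authors aligned and counted them with Cell Ranger 5.0.0 on mm10. The authors kept cells with at least 5000 UMIs and at most 10% mitochondrial UMIs, and clustered them after batch correction. The deposited log2 values are log2(UMI count / size factor + 1), without batch correction, and the deposited size factor is a score that the authors computed per cell with scran. Deposited UMI count totals per cell came with them. Undoing the log2 values with the size factors gave whole UMIs for 100% of 42420937 values above 0 (tolerance 0.001). Of 12581 cells, 1317 had fewer UMIs in the matrix than in the deposited totals, by at most 0.828%.

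Mean log2 values per library were tested with limma 3.58.1 (R 4.3.3): tissue with genotype as a term over 8 libraries, genotype over 4 mouse means, and the interaction over 4 mouse differences. A gene entered when at least 5% of cells held a UMI of it, and a library entered a cluster's fit with at least 20 cells. Benjamini-Hochberg values ran over all genes tested, with a threshold of 0.05. edgeR 4.0.16 on summed UMIs was an alternative. Both were run on simulated data whose noise was drawn for each library alone, with no effect of the mouse. Those runs cannot show how the tests behave when the tissues of a mouse vary together, as they did here. Shares carry exact (Clopper-Pearson) 95% intervals, and these and the limits for 0 counts (3 counts) cover counting error only. No doublet caller was run, and the sort had gated doublets out by scatter.

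Each mouse gave both tissues, so the numbers pair the libraries: deviations from the group means correlated across 9257 genes at 0.843 in WT and 0.853 in KO mice. The 10 genes, the related lists and the markers were chosen with earlier results of these data known. All 10 were named in every comparison, and a related gene was to be named where it passed the threshold. The alternatives with cells thinned to 5000 UMIs, without shared barcodes, without batch 6, without the library of 38 cells, in single clusters for the interaction, and with edgeR without each mouse were chosen after seeing the data.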

Additional observations from a re-analysis of the deposited data

Results flagged for a closer look

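The tissue difference of *Klk6* differed between the genotypes by edgeR's quasi-likelihood test on summed UMIs. The KO minus WT difference of hippocampus minus cortex was 2.37 on the log2 scale over all cells (Benjamini-Hochberg adjusted p = 0.00092) and 2.07 in Oligo2 alone (adjusted p = 1.29e-08). Oligo1 made a larger share of hippocampus than of cortex cells in KO mice 3 and 6. The part of that in the value over all cells was not tested. In Oligo2 the hippocampus minus cortex difference in mean log2 level was -0.40 and -0.26 in the WT mice and 0.02 and 0.0022 in the KO mice. limma's test of the same difference on mean log2 levels did not pass (0.12 ± 0.04 over all cells, adjusted p = 0.79). Groups of 2 mice are too small for a test of single samples that stand apart.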

How the results depend on the processing

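No member was called by limma in any comparison, and the replicate block for mouse changed no call (0 members and 0 genes called in each tissue comparison). The term for mice of the same age changed no call between genotypes either (0 members and 0 genes). In the interaction, 1 member was called by edgeR over all cells and 1 in Oligo2 alone, and 0 to 2 when 1 mouse was left out. The second of these was *S100b*, in Oligo2 by edgeR without mouse 1, where its difference was 0.90 (adjusted p = 3.21e-09) against -0.02 over all cells with limma, and the cause was not tested. Genes called in the interaction were 1 by edgeR over all cells, 1 in Oligo2, and 0 to 250 when 1 mouse was left out (by edgeR in Oligo2, 31, 5, 1 and 83 without mouse 1, 3, 4 and 6). edgeR called 2 genes between tissues in Oligo4 and 3 in Oligo1, and 8, 4, 3 and 25 between genotypes in all cells, Oligo2, Oligo3 and Oligo4. log2 of the mean plus 0.1 called 2 between tissues in Oligo1, and 2, 2, 1 and 12 between genotypes in the same order. Without the filter on low genes, 1 gene was called between tissues in Oligo3, 1 in Oligo4, and 1 between genotypes in all cells and 1 in Oligo3. The cause of these changes was not tested. Of 1494 member values under alternatives 158 changed sign, 82 of them without 1 mouse and 23 without batch 6, and none of the 117 values belonging to the 7 differences with an unadjusted p under 0.05 did. Leaving out a KO mouse left no residual degrees of freedom in Oligo1, and the interaction could not be fitted without batch 6. With 2 mice a genotype, and tissue tied to batch, small differences were not detectable.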
